A study of Mus musculus with 24 samples.

Results

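The genes described here are 44 cell cycle genes, found by symbol among the 24447 genes of a single-cell count matrix of mouse liver NKT cells. They fall into 17 G1/S genes, 22 G2/M genes and 5 broadly expressed genes whose transcripts rise in dividing cells but are also present in resting cells. All 44 had a row in the matrix. NKT cells are T cells that also carry NK1.1, a receptor of natural killer cells. The cells came from the livers of C57BL/6 mice aged 8 to 10 weeks and were isolated by Percoll centrifugation, sorted as NK1.1+CD3e+ and picked by hand before sequencing with molecular identifiers (UMIs). There were 8 libraries from each of 3 genotypes: CD1d-deficient, Jα18-deficient and wild type (WT). Type I NKT cells build their antigen receptor with the Jα18 segment, and CD1d is the lipid-presenting molecule on which NKT cells of type I and of type II depend. Where 3 values stand without names, WT comes first, Jα18-deficient second and CD1d-deficient last. The mice had no treatment in the labels, and the labels and methods do not say how many animals gave the cells of a genotype.

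The matrix names each cell by its genotype and a cell number. The cells of a genotype therefore form 1 pool, the genotypes are compared without a test, and the intervals given cover counting error only. There were 623 WT, 725 Jα18-deficient and 387 CD1d-deficient cells with 34102694, 60484252 and 14536585 UMIs, and the median cell held 40467, 46670 and 13508 UMIs. Because the depths differ, the cells with at least 10000 UMIs were thinned at random to 10000 UMIs each (523 WT, 632 Jα18-deficient and 227 CD1d-deficient cells, 1382 of 1735). Values are at this equal depth unless unthinned counts are named. Levels are UMIs per 1000000 UMIs (CPM) of a pool, a class or a list. The gene Cd1d1 had 854, 934 and 0 UMIs in the unthinned pools, and 3 UMIs would be 0.206 CPM in the CD1d-deficient pool. The labelled cell type was checked with its markers: Cd3d had a UMI in 98.9%, 98.4% and 97.8% of WT, Jα18-deficient and CD1d-deficient cells, Cd3e in 79.5%, 86.2% and 70.5%, and Klrb1c, which encodes NK1.1, in 85.1%, 88.9% and 86.3%. The T cell receptor segments are not in the matrix, so the Jα18 deletion was not checked.

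A cell that prepares to divide first makes the proteins that license and copy its DNA, and most of their genes are switched on together at the G1/S boundary by E2F factors. The genes for chromosome condensation, spindle assembly and the separation of chromatids follow in G2 and M, under the MuvB complex with B-MYB and FOXM1. Most T cells in a resting organ are in G0, where E2F targets and G2/M genes are repressed. Liver NKT cells include effector-like cells that can divide after stimulation.

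The promoters of the members separated the lists by short motifs that the rule did not use. RefSeq promoters of 300 bases (GRCm38.p6, 250 before to 50 after the transcription start) matched 37 members, 14 of the G1/S, 19 of the G2/M and 4 of the broadly expressed genes. The letters TTTGAA on either strand, the core of the CHR element to which MuvB binds, occurred in 14 of 19 G2/M promoters (73.7%), in 1 of 14 G1/S promoters (7.14%) and in 18.1% of 27025 promoters of all genes. The letters CCAAT on either strand, a site of the factor NF-Y, occurred in 84.2% of the G2/M promoters, 71.4% of the G1/S promoters and 37.9% of all. E2F letters (TTTCGCGC, TTTGGCGC, TTTCCCGC or TTTGCCGC, on either strand) occurred in 6 of 14 G1/S promoters (42.9%), 1 of 19 G2/M promoters (5.26%) and 2.32% of all. These are matches of letters and not measured binding. The 250 bases before the start are shown for 4 members on which the results turn, 5′ to 3′ on the gene's strand: Ube2c (chr2:164769679-164769928, plus strand) and Mki67 (chr7:135716380-135716629, minus strand) for the G2/M genes, Mcm5 (chr8:75109259-75109508, plus strand) for the G1/S genes, and H2afz, named H2az1 in RefSeq (chr3:137864237-137864486, plus strand). Capitals mark the TTTGAA and CCAAT matches on either strand and, in Mcm5, a run in which E2F matches of both strands overlap.
Ube2c: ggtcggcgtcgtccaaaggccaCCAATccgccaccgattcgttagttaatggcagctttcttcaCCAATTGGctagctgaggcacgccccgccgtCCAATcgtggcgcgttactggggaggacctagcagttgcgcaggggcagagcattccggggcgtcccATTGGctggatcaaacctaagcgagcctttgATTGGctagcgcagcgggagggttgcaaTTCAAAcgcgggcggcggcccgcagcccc
Mki67: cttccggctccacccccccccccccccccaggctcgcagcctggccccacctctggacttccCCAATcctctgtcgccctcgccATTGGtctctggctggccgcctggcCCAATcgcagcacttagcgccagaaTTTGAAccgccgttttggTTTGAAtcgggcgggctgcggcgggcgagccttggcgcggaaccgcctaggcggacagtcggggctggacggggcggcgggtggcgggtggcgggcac
Mcm5: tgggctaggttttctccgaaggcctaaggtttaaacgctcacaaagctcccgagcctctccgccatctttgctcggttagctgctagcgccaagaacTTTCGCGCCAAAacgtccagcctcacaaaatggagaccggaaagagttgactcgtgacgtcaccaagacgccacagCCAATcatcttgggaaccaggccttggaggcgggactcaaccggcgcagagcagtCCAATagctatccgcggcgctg
H2afz: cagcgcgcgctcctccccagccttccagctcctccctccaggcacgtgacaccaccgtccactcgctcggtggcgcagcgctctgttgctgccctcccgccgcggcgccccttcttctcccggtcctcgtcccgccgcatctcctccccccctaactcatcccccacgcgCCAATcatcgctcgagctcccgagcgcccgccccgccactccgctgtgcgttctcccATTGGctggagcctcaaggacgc
Ube2c held 1 TTTGAA match and 6 CCAAT matches, of which a pair overlap on opposite strands, and Mki67 held 2 TTTGAA and 3 CCAAT matches. Mcm5 and H2afz held no TTTGAA match.

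A run of cells in the Jα18-deficient pool stood apart in the G2/M genes. It was picked as the run of that pool with the highest mean number of G2/M genes per cell. The cell numbers go from 1 to 768 in each pool, and no source used here ties a number to a library, so runs of 96 numbers are a description only. In the 91 Jα18-deficient cells numbered 289 to 384, a mean of 4.60 G2/M genes per cell had a UMI in unthinned counts, against 0.385 to 1.53 in the other 7 runs of that pool. Of those 4.60 genes, 3.14 had exactly 1 UMI in the cell. Such genes were also common in other runs of that pool. They made up 1.12 of 1.53 genes in cells numbered 577 to 672 and 0.416 of 0.551 in those numbered 481 to 576. The part was lowest in cells numbered 673 to 768 (0.226 of 0.527). Cenpe, a kinetochore kinesin, had a UMI in 72.5% of these cells and in 2.21% of the other Jα18-deficient cells, and Ube2c in 46.2% and 5.68%. At equal depth the mean was 0.854 G2/M genes over 82 cells, against 0.1125 to 0.675 in the other runs. The run with numbers 577 to 672 came next with 0.675. For the G2/M genes of the Jα18-deficient pool, values without the cells numbered 289 to 384 are given beside those results that they move most; the cause was not tested. No WT cell numbered 385 to 480 and no CD1d-deficient cell numbered 577 to 672 reached 10000 UMIs.

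**Figure D1:**
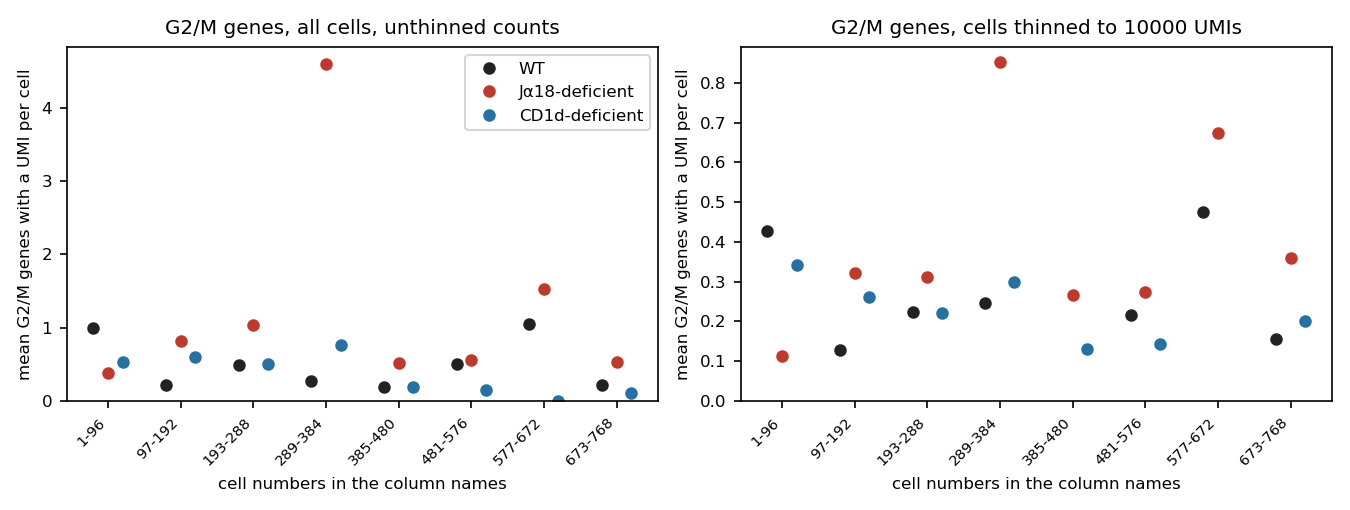
Mean number of the 22 G2/M genes with a UMI per cell (vertical axis) for runs of 96 cell numbers (horizontal axis), in unthinned counts of all cells (left) and in cells thinned to 10000 UMIs (right, runs with no such cell left out). Points are WT (black), Jα18-deficient (red) and CD1d-deficient (blue) cells; the Jα18-deficient run 289 to 384 lies highest in both panels, at 4.60 and 0.854.

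The G1/S genes were detected in most cells. At least 1 G1/S gene had a UMI in 79.5%, 75.3% and 73.6% of cells. Their summed level was 504 CPM (WT, 95% exact Poisson interval 485 to 523), 427 (Jα18-deficient, 411 to 443) and 445 (CD1d-deficient, 418 to 473). A cell carried a mean of 1.56, 1.43 and 1.46 of the 17 genes, and the cell with the most UMIs held 2.89% to 6.63% of a pool's sum.

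Pcna, the sliding clamp of DNA polymerases, had the highest level of the G1/S genes, with 194, 136 and 142 CPM. It had a UMI in 41.1%, 34.2% and 33.0% of cells. The Pcna intervals of the Jα18-deficient pool (127 to 145) and the CD1d-deficient pool (127 to 158) overlapped, and that of the WT pool (182 to 206) lay above both. The 6 subunits of the MCM helicase, which unwinds DNA at the fork, lay between 18.5 and 59.1 CPM in the 3 pools. Mcm6 was at 59.1, 49.1 and 58.6 CPM in the WT, Jα18-deficient and CD1d-deficient pools, and Mcm4 was at 40.2, 41.0 and 29.5. Mcm2 was at 24.5, 45.4 and 26.9 CPM, so that the Jα18-deficient pool lay highest for this subunit. Mcm7 was at 38.8, 31.8 and 26.9 CPM, Mcm3 at 30.8, 20.7 and 18.5 and Mcm5 at 20.5, 24.2 and 33.9. The order of the pools thus differed from subunit to subunit. Gmnn, or geminin, which blocks a further round of licensing, was at 28.1, 18.4 and 39.6 CPM, highest in the CD1d-deficient pool. The remaining 9 G1/S genes were at 30.8 CPM or below in each pool, and Ccne2, a cyclin of the G1/S step, had 0, 2 and 1 UMIs.

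The G2/M genes were near the limit of detection. At least 1 of the 22 had a UMI in 109 of 523 (20.8%), 185 of 632 (29.3%) and 52 of 227 cells (22.9%). Their summed level was 68.3 CPM (WT, 61.4 to 75.7), 112 (Jα18-deficient, 104 to 120) and 72.7 (CD1d-deficient, 62.0 to 84.7). Without the cells numbered 289 to 384 the Jα18-deficient pool was at 100.5 CPM. At 20000 UMIs a cell the 3 levels were 70.5, 91.1 and 78.9 CPM, and in unthinned counts, where deep cells weigh more, they were 110, 86.7 and 67.6 CPM. The WT cell numbered 656 held 1582 of the 3743 unthinned UMIs of its pool, and without the top cell of each pool the unthinned levels were 64.2, 74.0 and 60.1 CPM. Summed over the pools, Kif20b, a kinesin of cytokinesis, had the most UMIs of the list, with 22.2, 12.0 and 16.7 CPM in the WT, Jα18-deficient and CD1d-deficient pools. Cenpa, the histone H3 variant of centromeres, followed with 10.7, 15.7 and 16.3 CPM. These members had the most cells with a UMI (4.78% to 6.88% of a pool), and 69.6% of the cells with Kif20b and 72.9% of those with Cenpa had no other G2/M gene.

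Several G2/M genes owed their level in a pool to 1 cell. Birc5 (survivin, a chromosomal passenger protein) was at 1.53, 21.5 and 4.41 CPM, and 85 of its 136 Jα18-deficient UMIs were in 1 cell. Ube2c, the E2 enzyme of the anaphase-promoting complex, had 83 UMIs in 22 of 632 Jα18-deficient cells (13.1 CPM) and 0 UMIs in the 523 WT and the 227 CD1d-deficient cells. Of the 83 UMIs of Ube2c, 52 were in 1 cell. The 0 counts allow a Ube2c level of up to 0.574 CPM in the WT pool and 1.32 CPM in the CD1d-deficient pool (3 UMIs). Bub1b, a kinase of the spindle checkpoint, had 1, 1 and 28 UMIs in the WT, Jα18-deficient and CD1d-deficient pools, of which 25 were in 1 CD1d-deficient cell. A pool's level of such a member is thus close to the level of a few cells.

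The remaining G2/M genes with values were low in each pool. Mki67, the proliferation antigen Ki-67, was at 4.78, 9.65 and 2.20 CPM in the WT, Jα18-deficient and CD1d-deficient pools, with a UMI in 10, 21 and 4 cells. Of its 61 Jα18-deficient UMIs, 31 were in cells numbered 289 to 384, and the other Jα18-deficient cells were at 5.45 CPM. Top2a, which untangles sister chromatids, was at 7.65, 4.91 and 2.64 CPM. Cenpe was at 3.44, 6.01 and 1.76 CPM, and Cenpf, another kinetochore protein, at 0.956, 5.70 and 2.64. For Cenpe, 22 of 38 Jα18-deficient UMIs were in cells numbered 289 to 384, and the others were at 2.91 CPM, below the WT pool. Ccnb2, a mitotic cyclin, was at 1.15, 3.80 and 6.17 CPM, and Cdc20, an activator of the anaphase-promoting complex, at 2.29, 4.43 and 1.76. The WT pool had no UMI of 2 G2/M genes, the Jα18-deficient pool of 0 and the CD1d-deficient pool, with the fewest cells, of 6. The other 11 G2/M genes were at 4.78 CPM or below in each pool.

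The broadly expressed genes lay above both lists. Their summed level was 2164, 2086 and 2361 CPM. Without the cells numbered 289 to 384 the Jα18-deficient pool was at 1929 CPM. Tubb5, a beta tubulin, was at 812, 788 and 1030.0 CPM, and Tuba1b, an alpha tubulin, at 327, 228 and 173. H2afz, the histone variant H2A.Z, was at 492, 595 and 674 CPM, and Hmgb2, a chromatin protein, at 511, 447 and 473. Stmn1, which destabilises microtubules, was the lowest of the 5 with 22.2, 28.0 and 11.5 CPM and a UMI in 5.93%, 10.6% and 3.52% of cells. Its level thus lay within the range of the G1/S genes. Reads of near-identical copies and pseudogenes can be shared by the counting of H2afz, Hmgb2 and the tubulins, so their levels are uncertain.

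**Figure D2:**
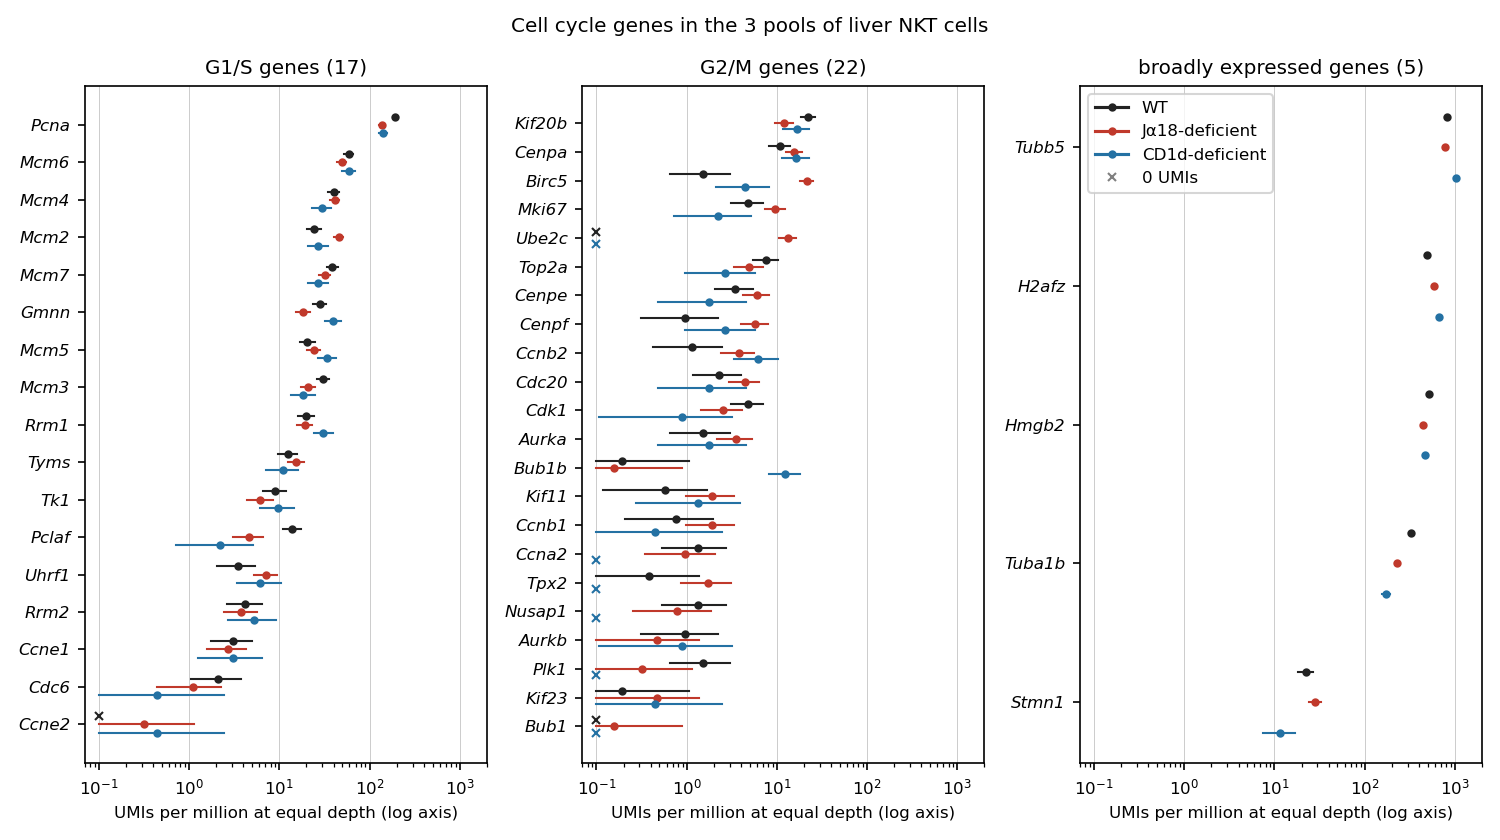
Level of each of the 44 members in the 3 pools at equal depth (CPM on a log axis; bars are 95% exact Poisson intervals of the counts, drawn from 0.1 upward, and crosses mark 0 UMIs), ordered within each list by total UMIs. G1/S genes run from Pcna (136 to 194) down to Ccne2, G2/M genes lie at 22.2 or below, and Ube2c was seen in the Jα18-deficient pool (13.1) and at 0 UMIs in the others.

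The pools were compared gene by gene as ratios of CPM, where a gene had 20 or more UMIs over the pair of pools. With 1 pool a genotype, past 2-fold is a description of size. The 3 comparisons share their pools and are not independent. Of 32 members compared between the Jα18-deficient and WT pools, 7 were more than 2-fold higher in the Jα18-deficient pool, where 11.1% of all genes compared were, and 1 was more than 2-fold lower, where 5.71% of all genes were. The 7 were the G2/M genes Mki67, Birc5, Ccnb2, Cenpf, Ube2c and Aurka (6 of 12 compared) and Uhrf1, a partner of DNA methylation at replication forks (1 of 15 G1/S genes). The median log2 ratio was 0.98 for the 12 G2/M genes, -0.19 for the 15 G1/S genes and 0.08 over all genes compared.

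The sizes of these ratios varied with single cells. Birc5 was 14.1-fold above its WT level in Jα18-deficient cells (136 against 8 UMIs), and still 14.1-fold higher after the cell with the most Birc5 UMIs was left out of each pool (51 against 3 UMIs). At 20000 UMIs a cell Birc5 was 3.70-fold higher, and in unthinned counts it was at 0.952 times the WT level (412 against 244 UMIs). Cenpf was 5.96-fold higher (36 against 5 UMIs) and Ccnb2 3.31-fold (24 against 6 UMIs, the 6 from 1 cell), but Ccnb2 was at 0.369 times the WT level in unthinned counts. Ube2c was 22.9-fold higher with the 0 UMIs of WT set at 3, and 8.55-fold higher without its top cell. At 5000 UMIs a cell it was 15.1-fold higher (37 against 2 UMIs) and at 20000 UMIs 60.9-fold (147 against 2 UMIs). In unthinned counts it was 20.1-fold higher (285 against 8 UMIs). Aurka, a spindle kinase, was 2.28-fold higher with a counting interval on the log2 scale of -0.04 to 2.56, which includes 0. Mki67 was 2.02-fold and Uhrf1 2.07-fold higher, and both were under 2-fold without the top cells, at 1.90-fold and 1.10-fold. Uhrf1 was at 0.975 times the WT level at 20000 UMIs a cell. Of the 7 members, 5 thus stayed past 2-fold without the top cells. The member lower in the Jα18-deficient pool was Pclaf, the PCNA clamp-associated factor, at 0.329 times the WT level. Without the cells numbered 289 to 384, 7 of 32 members were past 2-fold higher, where 10.6% of 9695 genes compared were. Lower were 3 members, where 6.15% of all genes were, and 7 of the 8 kept their direction past 2-fold. The member that did not was Mki67, at 1.14-fold (30 against 25 UMIs). Cdc20 (2.22-fold), Cdk1 (0.228 times the WT level) and Kif20b (0.385 times) were past 2-fold in addition, and are named after their values were seen.

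Between the CD1d-deficient and WT pools, 28 members were compared. Of these, 2 were more than 2-fold higher in the CD1d-deficient pool, Ccnb2 and Bub1b, where 10.5% of all genes were, and 4 were more than 2-fold lower, Pclaf, Mki67, Top2a and Cdk1, where 10.5% of all genes were. Ccnb2 was 5.38-fold higher (14 against 6 UMIs) with 11 of its 14 UMIs in 1 cell, and at 20000 UMIs a cell it was at 0.386 times the WT level (2 against 14 UMIs). The log2 ratio of Bub1b was 6.01 with a counting interval of 3.41 to 11.4, since the WT pool had 1 UMI, and 25 of the 28 UMIs were in 1 CD1d-deficient cell. Pclaf was at 0.158 times the WT level, Mki67 at 0.461, Top2a at 0.346 and Cdk1, the mitotic kinase, at 0.184, and the CD1d-deficient pool had 2 to 6 UMIs of each. The counting interval of Mki67 (log2 -2.86 to 0.29) included 0. Cdk1 was at 0.768 times the WT level with another draw (5 against 15 UMIs) and at 0.611 times at 20000 UMIs a cell, and Top2a was at 0.606 times at 20000 UMIs, so that neither was past 2-fold there.

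Between the CD1d-deficient and Jα18-deficient pools, 32 members were compared. Gmnn and Bub1b were more than 2-fold higher in the CD1d-deficient pool (2 members, where 8.32% of all genes were). Pclaf, Mki67, Birc5, Cenpe, Cenpf, Ube2c, Cdc20 and Stmn1 were more than 2-fold lower (8 members, where 14% of all genes were), 6 of them G2/M genes. Gmnn was 2.16-fold higher, and 1.86-fold without the top cells. Stmn1 was at 0.409 times and Birc5 at 0.205 times the Jα18-deficient level. Ube2c was at 0.101 times that level with its 0 UMIs set at 3. Of the 136 Jα18-deficient UMIs of Birc5, 85 were in 1 cell, and at 20000 UMIs a cell Birc5 was at 0.816 times and Cdc20 at 0.768 times the Jα18-deficient level. Without the cells numbered 289 to 384, Cenpe was at 0.606 times, no longer past 2-fold, and Mki67 at 0.404 times in place of 0.228. The counting intervals of Pclaf, Cenpf and Cdc20 included 0. The median log2 ratio of the 12 G2/M genes compared was -1.04, that of the 15 G1/S genes 0.06 and that of all genes -0.05. In the CD1d-deficient pool a list of 8 myeloid markers had a UMI in 95.2% of cells, against 32.1% of WT and 20.6% of Jα18-deficient cells. Most of this was Lyz2, with a UMI in 93.0% of CD1d-deficient cells and 785 of the list's 901 CPM. Fcgr3 had a UMI in 21.1% of them, Cd68 in 10.6%, Csf1r in 9.25% and the rest in at most 3.08%. The part of this list in these ratios was not tested. Hepatocyte markers had a UMI in 5.35%, 1.58% and 0.441% and B cell markers in 2.87%, 2.85% and 3.96% of WT, Jα18-deficient and CD1d-deficient cells, and the 6 erythroid markers were at 0 UMIs.

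Few cells carried several G2/M genes together at equal depth. Over the 3 pools, 346 of 1382 cells (25.0%) had a UMI of at least 1 G2/M gene, 18 (1.30%) of at least 3 and 3 (0.217%) of at least 5. The cells with at least 5 were 1 of 523 (WT, 0.191%, 95% exact interval 0.00484 to 1.06%), 2 of 632 (Jα18-deficient, 0.316%, 0.0383 to 1.14%) and 0 of 227 (CD1d-deficient, 0 to 1.61%). At the lower mark of 3 genes there were 3 WT, 15 Jα18-deficient and 0 CD1d-deficient cells. In unthinned counts the cells with at least 5 were 2 of 623, 55 of 725 and 1 of 387. Of these 55, 42 were among the 91 cells numbered 289 to 384 and 13 among the other 634 Jα18-deficient cells (2.05%, 1.10 to 3.48%). When a gene was counted from 2 UMIs upward in unthinned counts, they were 1, 13 and 1, and 9 of the 13 were in that run.

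The cells with most genes can be described one by one. The WT cell numbered 656 had UMIs of 10 G2/M genes (Mki67, Top2a, Birc5, Ccnb2, Cdk1, Cdc20, Nusap1, Kif11, Kif20b and Aurkb) and of 16 of 17 G1/S genes. It also held the most UMIs of Stmn1 in any cell (33 of 10000) and had been sequenced to 422898 UMIs. The Jα18-deficient cell numbered 265 had 7 G2/M genes with 34 UMIs and 2 G1/S genes, and the one numbered 716 had 5 G2/M genes with 29 UMIs and 1 G1/S gene. The cell from WT thus carried both lists, and the Jα18-deficient pair carried few G1/S genes.

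The 18 cells with at least 3 G2/M genes had higher summed levels of the other lists. Their summed G1/S level was 2006 CPM against 438 in the other 1364 cells, and that of the broadly expressed genes 4756 against 2126. The G1/S level was 5333 CPM in the 3 WT and 1340 CPM in the 15 Jα18-deficient cells, and the broad level 12333 and 3240 CPM. Of the 18, 1 cell had no G1/S gene, 9 had 1 or 2 and 5 had at least 5. The sums thus lean on a few cells and do not describe each of the 18. Stmn1 had a UMI in 11 of the 18 (61.1%) and in 95 of the 1364 (6.96%). The median depth before thinning was 43537 UMIs in the 18 and 51355 in the rest. Of the 18, 6 were Jα18-deficient cells numbered 289 to 384 and 7 were Jα18-deficient cells numbered 577 to 672.

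Cells with several G1/S genes were more common. At least 5 G1/S genes had a UMI in 17 of 523 (3.25%, 1.90 to 5.15%), 16 of 632 (2.53%, 1.45 to 4.08%) and 3 of 227 cells (1.32%, 0.273 to 3.81%), and these intervals overlapped. The 36 cells had a mean of 0.944 G2/M genes, against 0.294 to 0.342 in cells with fewer G1/S genes, and 14 of the 36 had at least 1. The CD1d-deficient cell numbered 309 had 15 G1/S genes and 1 G2/M gene, and the Jα18-deficient cells numbered 602 and 358 had 14 and 12 G1/S genes with 3 and 4 G2/M genes. Among the G1/S genes, Cdc6, which loads the helicase, was rare (11 cells) and its cells had a mean of 7.18 other G1/S genes, whereas the 506 cells with Pcna had a mean of 1.34.

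**Figure D3:**
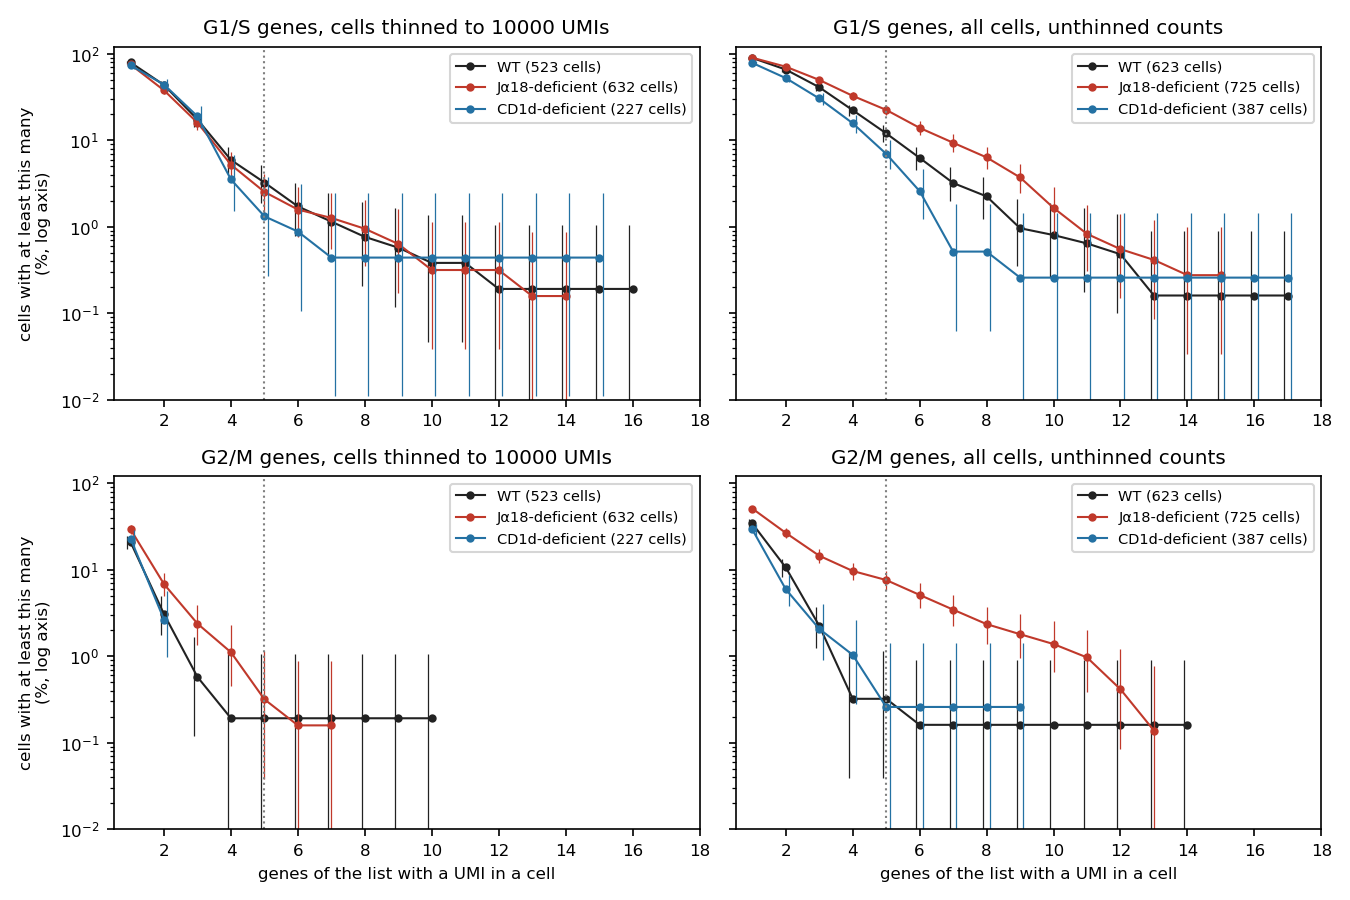
Share of cells (percent, log axis) with a UMI of at least the number of G1/S genes (top) or G2/M genes (bottom) on the horizontal axis, thinned to 10000 UMIs (left) and in unthinned counts of all cells (right). Lines are the 3 pools with 95% exact binomial intervals, and the dotted line marks 5 genes; at equal depth the G2/M share at 5 genes was 0.191% in WT and 0.316% in Jα18-deficient cells, and the Jα18-deficient line lies apart in the unthinned panel (55 of 725 cells at 5 genes, of which 42 are numbered 289 to 384).

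Each cell was next placed by Cd4, Cd8a, Ly49 and S1pr1. Cd4 and Cd8a encode T cell co-receptors, the Ly49 receptors (9 Klra genes) bind MHC class I on NK and NK-like T cells, and S1pr1 is the receptor by which lymphocytes leave tissues for the blood. A cell was positive with at least 1 UMI after thinning, so a negative cell may still express the gene. Positive cells in the WT, Jα18-deficient and CD1d-deficient pools numbered 143, 74 and 2 for Cd4, 52, 136 and 111 for Cd8a, 141, 458 and 178 for Ly49 and 21, 53 and 18 for S1pr1. The classes overlap: 240 of 299 Cd8a-positive cells were also Ly49-positive.

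The summed G1/S level differed little between the classes. The log2 ratio, positive over negative cells, lay between -0.23 and 0.07 in each pair of pool and class that had UMIs on both sides, and each of these 11 counting intervals included 0. Without the cell with the most G1/S UMIs on each side, 6 of the 11 intervals did not include 0 and the ratios ran from -0.51 to 0.38. S1pr1-positive cells were then lower in each pool (log2 -0.51, -0.36 and -0.46), and Ly49-positive cells higher in the CD1d-deficient pool (0.38, 423 against 325 CPM). Leaving out 1 cell takes more from the side with fewer cells. In WT the top cell held 29.2% of the UMIs of 21 S1pr1-positive cells and 4.73% of those of 502 negative cells. In the CD1d-deficient pool it held 30.0% for 49 Ly49-negative and 4.83% for 178 Ly49-positive cells. This check thus cannot tell a class difference from the unequal sizes of the sides. Without the cells numbered 289 to 384 the S1pr1 ratio of the Jα18-deficient pool was 0.11, and its Ly49 ratio was 0.18 (429 against 379 CPM). The G1/S ratios thus moved with single cells. In the WT pool, for example, the level was 487 CPM in Cd4-positive and 510 in Cd4-negative cells. Cells with at least 5 G1/S genes were 2 of 299 Cd8a-positive cells (0.669%, 0.0811 to 2.40%) and 34 of 1083 Cd8a-negative cells (3.14%, 2.18 to 4.36%), and in each pool the positive cells had the smaller share (0 of 52 against 17 of 471, 2 of 136 against 14 of 496 and 0 of 111 against 3 of 116). This order depended on the mark. At least 1 G1/S gene was found in 80.8%, 78.7% and 74.8% of Cd8a-positive and in 79.4%, 74.4% and 72.4% of Cd8a-negative cells. For Cd4 the cells with at least 5 G1/S genes were 9 of 219 positive and 27 of 1163 negative cells.

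The summed G2/M level differed by class, with directions and sizes that depended on the pool and, for most classes, on the draw of UMIs. In the Jα18-deficient pool their summed level was 139 CPM in Ly49-positive cells (128 to 150) and 40.8 in Ly49-negative cells (31.9 to 51.5), a log2 ratio of 1.76. The ratio was 1.61 without the cells numbered 289 to 384 and 1.75 without the top cell on each side. With another random draw it was 1.27, at 5000 UMIs a cell 0.41 and at 20000 UMIs a cell 0.14. At 20000 UMIs 1 cell gave 99 of the 177 UMIs on the negative side. So the ratio was above 0 at each depth run, and its size varied with the depth and the draw; the cause was not tested. In the WT pool the same levels were 51.1 and 74.6 CPM (log2 -0.55), and in the CD1d-deficient pool 71.3 and 77.6 CPM (log2 -0.12). The WT ratio turned to 1.10 in unthinned counts, where 1582 of the 2673 UMIs of the positive side were in 1 cell.

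In Jα18-deficient cells, 17 of the 22 G2/M genes had a higher level in the Ly49-positive cells, also without the cells numbered 289 to 384, of which 71 of 82 were Ly49-positive. Of the 22 genes, 7 had no UMI in the 174 negative cells, among them Bub1 and Bub1b, with 1 UMI each in the 458 positive cells. A gene with so few UMIs falls more often on the side with more cells. The count of 17 is thus a description, and no share over all genes is given beside it. Birc5 was at 29.5 CPM in positive and 0.575 CPM (1 UMI) in negative cells, Kif20b at 15.5 and 2.87, and Ube2c at 17.5 and 1.72. On the positive side 85 of 135 Birc5 UMIs and 52 of 80 Ube2c UMIs were each in 1 cell, and without the top cell the positive levels were 10.9 and 6.13 CPM. Cenpe had UMIs in 21 of 458 Ly49-positive and 0 of 174 Ly49-negative cells, where 3 cells would be 1.72%. Of these 21 cells, 15 were numbered 289 to 384 and 6 were not. Mki67 was less apart, at 11.8 and 4.02 CPM, and at 6.20 and 3.68 without that run, and Cenpa was at 15.9 and 14.9 CPM. Shares of cells give each cell the same weight. At least 1 G2/M gene was found in 33.4% of Ly49-positive and 18.4% of Ly49-negative Jα18-deficient cells, in 32.7% and 22.9% with another draw, in 38.9% and 27.6% at 20000 UMIs and in 19.7% and 19.9% at 5000 UMIs, and without the run in 28.9% and 17.2%. At least 2 G2/M genes were found in 41 of 458 Ly49-positive cells (8.95%, 6.50 to 11.9%) and 2 of 174 Ly49-negative cells (1.15%, 0.140 to 4.09%), in 14.4% and 10.5% at 20000 UMIs, and without the run in 24 of 387 (6.20%) and 2 of 163 (1.23%). The shares at 5000 UMIs did not separate the classes. Of the 15 Jα18-deficient cells with at least 3 G2/M genes, 14 were Ly49-positive, 6 of them in the run. Another 7 of the 15 were numbered 577 to 672, and these cells stay in the values without the run.

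For Cd8a the pools went in different directions. The G2/M level was 28.8 CPM in WT Cd8a-positive cells (15 UMIs in 52 cells) and 72.6 in WT Cd8a-negative cells, a log2 ratio of -1.33. It was 166 and 96.8 CPM in the Jα18-deficient pool (log2 0.78) and 101 and 45.7 CPM in the CD1d-deficient pool (log2 1.14). Without the top cell on each side the ratios were -1.73, 0.27 and 1.02, and the Jα18-deficient positive level was 104 CPM without its cell with 85 Birc5 UMIs. At the other depths and with another draw the WT ratio lay between -1.66 and -0.20, the Jα18-deficient ratio between 0.41 and 1.07 and the CD1d-deficient ratio between 0.22 and 1.09. The summed level of each pool thus kept its direction for Cd8a. At least 1 G2/M gene was found in 13.5%, 38.2% and 27.0% of Cd8a-positive and 21.7%, 26.8% and 19.0% of Cd8a-negative cells. At least 2 were found in 0 of 52, 12 of 136 and 2 of 111 Cd8a-positive cells, and in 16 of 471, 31 of 496 and 4 of 116 Cd8a-negative cells. For the CD1d-deficient pool the share with at least 2 genes was thus the smaller on the positive side (1.80% against 3.45%), unlike its summed level, and the intervals of these shares overlapped.

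Cd4 and S1pr1 gave ratios whose direction was not stable. Cd4-positive cells of the Jα18-deficient pool had a G2/M level of 180 CPM against 103 in negative cells (log2 0.81, but -0.06 with another draw and -0.26 at 5000 UMIs), and those of the WT pool 61.5 against 70.8 CPM. The S1pr1-positive cells had 42.9, 88.7 and 94.4 CPM in the WT, Jα18-deficient and CD1d-deficient pools, from 9, 47 and 17 UMIs, and the negative cells 69.3, 114 and 70.8 CPM. The counting interval of each S1pr1 ratio included 0. Over the 3 pools the 18 cells with at least 3 G2/M genes included 15 Ly49-positive, 4 Cd8a-positive, 4 Cd4-positive and 2 S1pr1-positive cells, and 1 that was negative for all 4.

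The classes also differed in other markers. A list of 4 NK cell markers was at 1926 CPM in Ly49-positive and 348 CPM in Ly49-negative Jα18-deficient cells, and at 1333 and 102 CPM in WT cells. In Cd8a-positive and Cd8a-negative cells it was at 3235 and 1013 CPM (Jα18-deficient) and at 1915 and 270.1 CPM (WT). The list thus moved the same way with both classes in the 2 pools, whereas the G2/M genes did not; its part was not tested.

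**Figure D4:**
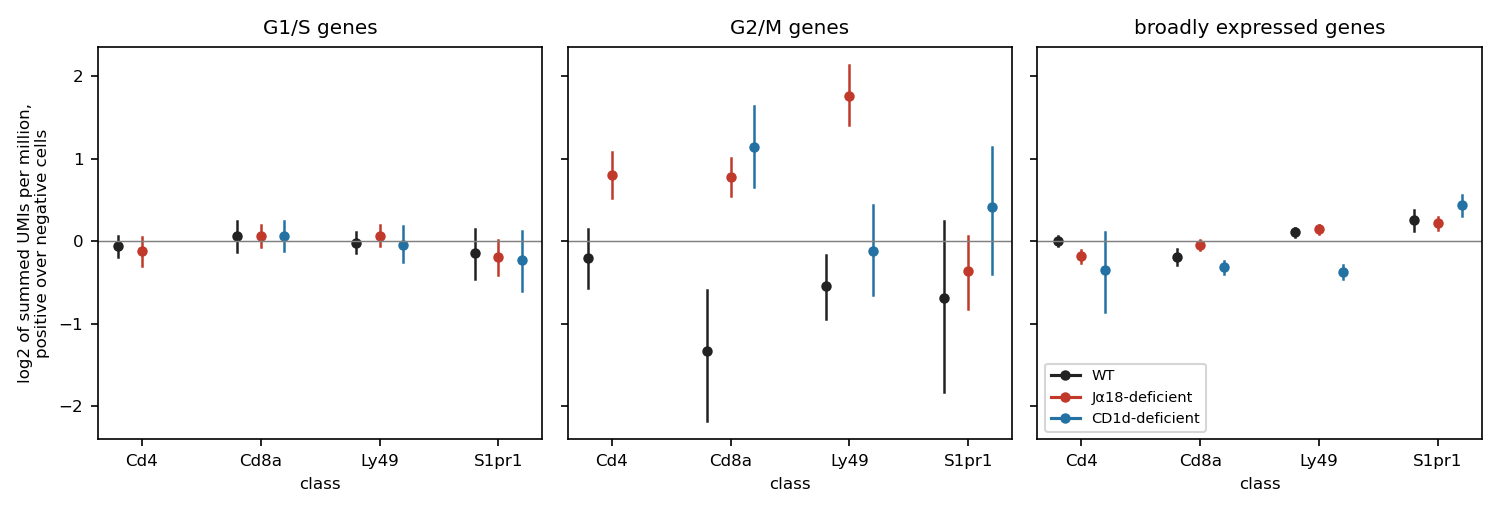
Log2 ratio of the summed level of each list in positive over negative cells (vertical axis) for 4 classes (horizontal axis) in the WT (black), Jα18-deficient (red) and CD1d-deficient (blue) pools at equal depth, with 95% counting intervals. G1/S ratios lie between -0.23 and 0.07, whereas G2/M ratios range from -1.33 (WT, Cd8a) to 1.76 (Jα18-deficient, Ly49, which was 0.14 at 20000 UMIs a cell); CD1d-deficient Cd4-positive cells (2) had no UMI of the G1/S and G2/M lists and have no point there.

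The class contrasts were tested gene by gene over all genes. UMIs were summed per pool and class and fitted with edgeR's quasi-likelihood test with the pool as a term (n = 3 pools a side, for Cd4 2 positive sums because the CD1d-deficient pool had 2 positive cells). A gene was called at a Benjamini-Hochberg adjusted p under 0.05 and a natural-log fold change past 0.25. Low counts kept most G2/M genes out of the fit: 8 of 22 were tested for Cd4 and 2 of 22, Kif20b and Cenpa, for each other class, with 10 to 14 of the 17 G1/S genes and the 5 broadly expressed genes. So the G2/M differences between classes given above are descriptions.

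Of the tested members, 0 of 27 were called for Cd4 (0.113% of all 8841 genes tested were called higher and 0.351% lower, 0.464% in all), 0 of 19 for Cd8a (0.492% higher and 0.2% lower of 7513 genes, 0.692% in all), 0 of 19 for Ly49 (0.496% higher and 0.124% lower of 8071, 0.62% in all) and 1 of 17 for S1pr1 (0.202% higher and 0.0945% lower of 7411, 0.297% in all). DESeq2 gave the same counts of 0, 0, 0 and 1. At an unadjusted p under 0.05 there were 1, 2, 1 and 3 members. These were Ube2c for Cd4, Mcm2 and Tubb5 for Cd8a, H2afz for Ly49, and Gmnn, Tuba1b and H2afz for S1pr1. For Cd4, the log2 fold change of Ube2c was 3.77 (SE 1.16, edgeR adjusted p = 0.237), and 52 of its 54 UMIs in Jα18-deficient Cd4-positive cells were in 1 cell. The log2 fold change of Mcm2 between Cd8a-positive and negative cells was -1.04 (SE 0.49, edgeR adjusted p = 0.669). Pcna had log2 fold changes of -0.18, 0.24, 0.04 and -0.53 for Cd4, Cd8a, Ly49 and S1pr1, with standard errors of 0.24, 0.21, 0.20 and 0.37. The median log2 fold change of the tested G1/S genes was -0.05 for Cd4, -0.26 for Cd8a, 0.03 for Ly49 and -0.12 for S1pr1, beside -0.03, -0.02, 0.02 and -0.17 over all genes tested.

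The member called was H2afz, which was higher in S1pr1-positive cells of each pool. H2A.Z replaces histone H2A in nucleosomes, among other places around transcription starts, and its transcript rises in dividing cells; in the build of the files (NCBIM37) its gene is at chr3:137527451-137529886. It was at 976 CPM in S1pr1-positive and 471 in S1pr1-negative WT cells, at 913 and 566 CPM in Jα18-deficient cells and at 1183 and 629.7 CPM in CD1d-deficient cells. The positive value lay above the negative value in each pool, and the 3 positive values lay above the 3 negative values. The log2 fold change was 0.91 (SE 0.19, edgeR adjusted p = 0.00385, higher in 3 of 3 pools) and 0.95 by DESeq2 (adjusted p = 0.00184).

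The H2afz difference was also seen in the median cell. The median was 9 UMIs of 10000 in S1pr1-positive and 3 in S1pr1-negative WT cells, 9 and 3 in Jα18-deficient and 10 and 4 in CD1d-deficient cells. The share of positive and negative cells with a UMI of H2afz was 90.5% and 70.1% in WT, 94.3% and 71.3% in Jα18-deficient and 88.9% and 71.8% in CD1d-deficient mice. Within Ly49-positive, Ly49-negative, Cd8a-positive and Cd8a-negative cells of each pool the log2 ratio lay between 0.16 and 1.13, above 0 in 12 of 12, although WT Cd8a-positive cells included 1 S1pr1-positive cell and CD1d-deficient Ly49-negative cells 2. The median depth before thinning was 57516 UMIs in S1pr1-positive and 51070 in negative WT cells, 72142 and 57489 in Jα18-deficient and 42418.5 and 39322 in CD1d-deficient cells; its part was not tested.

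Of the other 16 members tested for S1pr1, 0 passed the threshold. The other histone H2A.Z gene, H2afv, which is no member and was chosen after its values were seen, had a log2 fold change of -0.24 (edgeR adjusted p = 0.998). Tuba1b was at 0.62 (SE 0.28, edgeR adjusted p = 0.761) and Hmgb2 at 0.18 (SE 0.22, edgeR adjusted p = 0.998). Cells with at least 3 G2/M genes were 2 of 92 S1pr1-positive and 16 of 1290 S1pr1-negative cells. The call of H2afz was lost without the WT pool (log2 0.83, adjusted p = 0.140) and without the Jα18-deficient pool (log2 0.98, adjusted p = 0.143), and it held without the cells numbered 289 to 384 (log2 0.86, adjusted p = 0.00700). It was also lost with no pool term (edgeR adjusted p = 0.503), in unthinned counts (0.636) and in an additive fit over the 4 classes (0.156).

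**Figure D5:**
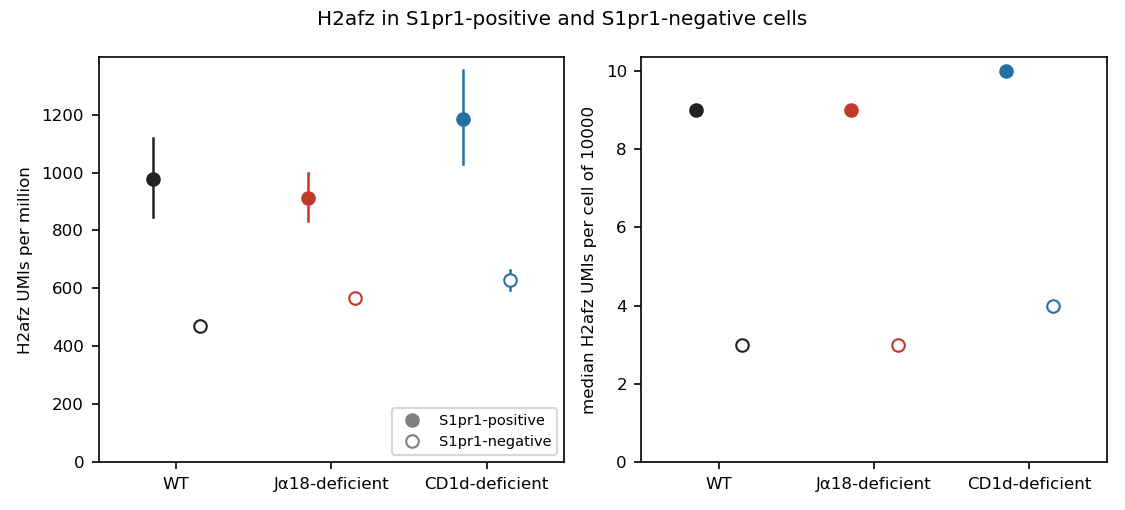
H2afz in S1pr1-positive (filled) and S1pr1-negative (open) cells of the 3 pools at equal depth. Left, CPM with 95% exact Poisson intervals (positive 913 to 1183, negative 471 to 629.7); right, median UMIs per cell of 10000 (positive 9 to 10, negative 3 to 4).

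Further genes of the cell cycle, outside the 44, were read from 3 fixed lists. Of 29 other G1/S genes, 18, 15, 16 and 15 were tested for Cd4, Cd8a, Ly49 and S1pr1, and 0 of these were called. The 3 with the most UMIs were Slbp, which binds histone mRNA, Dut, a dUTPase, and Rpa2, a subunit of the single-strand binding protein RPA. Slbp was at 196, 219 and 231 CPM in the WT, Jα18-deficient and CD1d-deficient pools, Dut at 59.3, 74.1 and 51.1, and Rpa2 at 43.0, 70.1 and 126. Past 2-fold between the Jα18-deficient and WT pools were 0 higher and 2 lower of 21 compared, where 11.1% and 5.71% of all genes were. Of 38 other G2/M genes, 5 were higher and 4 lower of 17 compared (29.4% and 23.5%). Their median log2 ratio was -0.08, beside 0.98 for the 12 G2/M members compared and 0.08 over all genes. Smc4 and Smc2, subunits of condensin, were at 157, 189 and 195 and at 63.5, 60.1 and 45.8 CPM, and Cks2, a partner of cyclin-dependent kinases, at 29.1, 20.1 and 19.8.

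Tacc3, a spindle protein among the other G2/M genes, was called for Cd4 (log2 3.67, SE 0.77, edgeR adjusted p = 0.00515). Its Jα18-deficient Cd4-positive cells had 90 UMIs, of which 89 were in 1 cell, and the WT Cd4-positive cells 6 UMIs in 4 cells. It was the only call among the 9 other G2/M genes tested for Cd4, and 0 of the 7, 9 and 6 tested for Cd8a, Ly49 and S1pr1 were called.

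The 23 genes that control entry into the cycle were the most abundant of these lists, with sums of 4007, 4072 and 3859 CPM. Ccnd2, a D-type cyclin that acts in G1, had a UMI in 98.9%, 97.6% and 96.5% of WT, Jα18-deficient and CD1d-deficient cells, at 2285, 2376 and 2336 CPM. Btg1 and Btg2, which restrain proliferation, were at 528, 644 and 611 CPM and at 502, 369 and 356 CPM. The level of Ccnd2 thus differed between pools by less than that of any of the 8 G1/S members given above. Ccnd2 was lower in Ly49-positive cells by a log2 fold change of -0.35 (SE 0.07, edgeR adjusted p = 0.0270), which missed the fold threshold. Of the 20, 17, 19 and 18 genes of this list tested for Cd4, Cd8a, Ly49 and S1pr1, 0 were called. Cdk6, a partner of D-type cyclins, was 3.75-fold above the WT level in Jα18-deficient cells. Cdkn1a (p21), an inhibitor of cyclin-dependent kinases, was 5.21-fold above it. Both were named after their values were seen, among the 3 of 21 (14.3%) past 2-fold higher, where 11.1% of all genes were. Over the 3 pools Cdkn1a had 141 UMIs in 29 cells, of which 41 were in 1 cell. Cdk6 had 521 UMIs in 125 cells, of which 46 were in 1 cell.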

How the data were processed

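Single NK1.1+CD3e+ liver cells of 3 genotypes were sequenced in 24 libraries. Per the labels and the methods of the study, the authors trimmed reads with cutadapt 1.15, aligned them with TopHat2 2.0.12 to mm9, counted genes with HTSeq 0.10.0 and deposited 1 matrix of UMI counts of 24447 genes by 1735 cells. No count is normalised, and 353 cells under 10000 UMIs were left out of the equal-depth values. A UMI counts a molecule, and a molecule missed in a shallow cell is read as 0, so cells were thinned without replacement. Intervals are 95% exact Poisson (levels) or Clopper-Pearson (shares) and cover counting error only; a count of 0 was set to 3 UMIs in ratios.

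The members and gene lists were chosen with earlier results of these data known. Genes with values in every pool were the 8 G1/S and 10 G2/M genes with the most UMIs, the 5 broadly expressed genes and any called member; for the other lists, the 3 with the most UMIs and any called gene. Cells could not be tied to libraries or animals, so the 3 genotype pools are the replicates of the class contrasts. With the pool as a term, the p-values rest on how far the difference between positive and negative cells varied from pool to pool. The fit leaves 2 residual degrees of freedom a gene (1 for Cd4), so edgeR estimates this spread largely from the other genes tested. A small p-value thus does not rest on the 3 pools of that gene alone. The p-values do not measure a spread between animals. Contrasts used edgeR 4.0.16 (R 4.3.3; TMM, filterByExpr), and the fit was tested on simulated data. Of 100 simulated 4-fold changes, 54, 64, 70 and 50 were called for Cd4, Cd8a, Ly49 and S1pr1. Of 100 simulated 2-fold changes, 25, 27, 21 and 7 were called. A class with no called member may thus still differ in these genes. DESeq2 1.42.0 was an alternative, as were depths of 5000 and 20000 UMIs, unthinned counts, another seed, other marks for carriers and for positive cells, no filter, no pool term, an additive fit and each pool left out. Thinning, intervals and figures used Python 3.11.15, numpy 2.4.6, scipy 1.17.1, pandas 2.3.3 and matplotlib 3.10.9.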

Additional observations from a re-analysis of the deposited data

Results flagged for a closer look

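The G2/M genes moved in opposite directions with Cd8a in different pools. Their summed level was higher in Cd8a-positive than in Cd8a-negative cells by a log2 ratio of 0.78 in the Jα18-deficient and 1.14 in the CD1d-deficient pool and lower in the WT pool (-1.33, from 15 UMIs in 52 positive cells). The same held for Ly49 between the Jα18-deficient pool (1.76) and the WT pool (-0.55). The broadly expressed genes were higher in Ly49-positive cells of the WT (0.11) and Jα18-deficient (0.14) pools and lower in those of the CD1d-deficient pool (-0.38). With 1 pool a genotype these differences were not tested. The Jα18-deficient Ly49 ratio was 0.14 at 20000 UMIs a cell.

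Among the 353 cells under 10000 UMIs, which the equal-depth values leave out, 4 had UMIs of at least 5 G2/M genes. These 4 were Jα18-deficient cells, of 93 such cells left out in that pool with a median of 6333 UMIs.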

How the results depend on the processing

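The call of H2afz for S1pr1 was the result with a test that changed. The number of members called was 0 in place of 1 with no pool term (H2afz log2 0.91, edgeR adjusted p = 0.503), in unthinned counts (0.67, adjusted p = 0.636) and in an additive fit over the 4 classes (0.72, adjusted p = 0.156), and 0 to 1 with each pool left out; over the settings where it was called the adjusted p was 0.00136 to 0.0332. For Cd4, Cd8a and Ly49, 0 members were called under each setting run; for Cd4 the fits without the WT or the Jα18-deficient pool could not be made. Calls over all genes fell from 41, 52, 50 and 22 for Cd4, Cd8a, Ly49 and S1pr1 to 1, 1, 7 and 1 with no pool term. They were 104 (Cd8a) and 116 (Ly49) with no filter, 8 for Cd4 with another seed, 1 for Cd8a at 20000 UMIs and 2 for S1pr1 in unthinned counts. Members past 2-fold between the Jα18-deficient and WT pools numbered 5 of 28 compared at 5000 UMIs and 14 of 42 in unthinned counts, against 8 of 32. Between the CD1d-deficient and WT pools they numbered 24 of 41 in unthinned counts, against 6 of 28. No share over all genes is given for these other depths, so the counts there are descriptions only.

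Ratios that turned were those of Uhrf1 (0.975 at 20000 UMIs), Birc5 (0.952) and Ccnb2 (0.369 in unthinned counts) for Jα18-deficient over WT, and Ccnb2 for CD1d-deficient over WT (0.386 at 20000 UMIs, 0.166 unthinned). The log2 G2/M ratio of the Jα18-deficient pool for Cd4 was -0.26 at 5000 UMIs, -0.063 with another seed and -0.23 unthinned, and that of the WT pool for Ly49 was 1.10 unthinned. For the broadly expressed genes of the CD1d-deficient pool it was 0.11 at 5000 UMIs and 0.15 unthinned for Cd8a, and 0.044 with another seed and 0.0090 unthinned for Ly49; for Ly49 in the Jα18-deficient pool it was -0.041 without cells 289 to 384. The causes were not tested.

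The share of Jα18-deficient cells with at least 5 G2/M genes (0.316%) was 2.37% at 3 genes, 0% at 8, 7.59% unthinned and 1.79% unthinned with at least 2 UMIs a gene. The shares with at least 5 G1/S genes (3.25%, 2.53% and 1.32% in the WT, Jα18-deficient and CD1d-deficient pools) were 17.4%, 16.0% and 18.9% at 3 genes, 5.57%, 4.24% and 4.22% at 20000 UMIs and 12.0%, 22.5% and 6.98% unthinned, and 0.765% (WT) and 0.949% (Jα18-deficient) at 8 genes and 1.77% (WT) at 5000 UMIs. No paired analysis was possible because the columns of the matrix carry no replicate numbers by which libraries of different genotypes could be paired; the positive and negative sums of a pool were paired through the pool term. At 10000 UMIs a cell, most G2/M genes were too low for a test. The checks without cells 289 to 384, with 2 UMIs a gene, without top cells and of each ratio by depth were chosen after seeing the data.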
